A study of Mus musculus with 20 samples.

Results

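A list of 44 genes that are transcribed as cells replicate their DNA and divide was followed through RNA-seq libraries of inflamed and control mouse epithelia. The members were taken by name as S-phase and mitosis genes, and all 44 were found among the 55471 genes of the count table. In acetone-treated epidermis the list lay above PBS-treated pancreas, with 9 of the 36 tested members past the threshold, where 6.83% of all genes were, but with 1 past it when acetone libraries 11 and 12 were left out. Members entered that fit mostly through their counts in epidermis, so the sign of those tested is partly set by the filter. In DNFB-treated epidermis no member passed the threshold against acetone. In caerulein-treated pancreas Tubb5 passed it, where 8.14% of all genes were called higher, in the fit of all libraries and in 3 of 10 fits with 1 library left out, and the other members were too low there to be fitted one by one under the main filter. Tubb5 entered that fit mostly through its counts with caerulein, so its sign there is partly set by the filter.

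A dividing cell first licenses its origins of replication, when Cdc6 and Cdt1 load the MCM helicase onto DNA, and then copies the genome in S phase with PCNA as the sliding clamp and ribonucleotide reductase supplying deoxyribonucleotides. Cyclin A and cyclin B with CDK1 drive entry into mitosis, Aurora and Polo kinases and kinesin motors build and use the spindle, and the anaphase-promoting complex with CDC20 and UBE2C ends mitosis. Resting cells hold little of most of these transcripts. In epidermis and hair follicles, division takes place in the basal layer and in the hair matrix, while adult acinar cells of the pancreas divide rarely.

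The list was split by function. There were 11 genes of initiation and licensing, 5 of S-phase synthesis, 9 of mitotic entry and its kinases, 11 of spindle, kinetochore and cytokinesis, 2 of mitotic exit and 2 chromosome genes (Mki67 and Top2a). The other 4 (Hmgb2, Stmn1, Tubb5 and H2afz) were grouped as abundant genes that resting cells also express, and they are described apart where they decide a result. In PBS-treated pancreas Hmgb2 and Stmn1 were not abundant, with 4 and 3 counts over the 5 libraries.

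All 20 libraries came from wild-type C57BL/6 mice, 5 in each group, and no group carried an engineered allele. DNFB (2,4-dinitro-1-fluorobenzene) is a contact allergen. Mice of both sexes, 4 to 6 weeks old at the start, were sensitized on the abdomen and then received DNFB on the back 3 times per week over 22 days, in a vehicle of acetone with olive oil, or the vehicle (acetone), and the epidermis of the back was isolated. Caerulein is a secretagogue that overstimulates acinar cells. It was given intraperitoneally at 50 μg/kg in PBS, 6 times per day on 3 days per week for 3 weeks, against PBS alone, and pancreas tissue was lysed. No age is given for the pancreas mice. The label numbers are 1, 2, 3, 11 and 12 for acetone, 4, 5, 6, 13 and 14 for DNFB, 7, 8, 15, 16 and 17 for PBS and 9, 10, 18, 19 and 20 for caerulein, and values per library are given in these orders. The numbers up to 10 and those above 10 each run through the 4 groups in turn, and the sources do not say what the numbers mark. The sources do not say whether each library came from its own mouse, so the spread between libraries may be partly technical.

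The libraries were shallow for these genes. Totals ran from 791491 to 2232039 counts, but 37.9 to 94.3% of them fell on 12 predicted genes with satellite-like sequence, which left 69592 to 1073987 usable counts. Acetone libraries 11 and 12 had 1073987 and 938689 usable counts, against 92640 to 152978 in acetone 1, 2 and 3. Marker genes fitted the labelled tissues: acinar markers took 5.24 to 27.3% of usable counts in PBS-treated pancreas and at most 0.0119% in acetone-treated epidermis, and basal keratinocyte markers took 0.0788 to 1.16% in acetone-treated epidermis and at most 0.0115% in PBS-treated pancreas. Olfactory receptor genes, which neither tissue is known for, took 0.375 to 4.55%.

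Before the values, 6 promoters are shown for the members on which the results turn, since genes of this list are known for 3 short promoter motifs. E2F motifs are typical of S-phase genes, and the cell cycle homology region (CHR) with CCAAT boxes is typical of mitotic genes. Each line gives the 250 bases before the transcription start, 5′ to 3′ on the gene's strand, from RefSeq (GRCm38.p6), with every match in capitals. Both strands were searched, for CHR as TTTGAA or else in the form TTCGAA, for the CCAAT box by its own letters, and for E2F as TTCCCGC or else in the form TTGGCGC or else in the form TTGCCGC or else in the form TTCGCGC. Overlapping matches of one motif were counted once, and an E2F match may overlap a CCAAT box, as in H2afz. Mcm6 (helicase, chr1:128359706-128359955, minus strand) and Rrm2 (ribonucleotide reductase, chr12:24708004-24708253, plus strand) stand for S phase. Top2a (chr11:99024190-99024439, minus strand) and Cdk1 (chr10:69352913-69353162, minus strand) stand for mitosis. Tubb5 (chr17:35838302-35838551, minus strand) and H2afz (chr3:137864237-137864486, plus strand) are the most abundant members.
Mcm6: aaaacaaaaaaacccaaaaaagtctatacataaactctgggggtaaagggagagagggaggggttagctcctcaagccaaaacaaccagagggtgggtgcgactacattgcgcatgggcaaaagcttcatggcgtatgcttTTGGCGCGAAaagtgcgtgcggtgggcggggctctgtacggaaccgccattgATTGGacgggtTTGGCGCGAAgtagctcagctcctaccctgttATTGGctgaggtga
Rrm2: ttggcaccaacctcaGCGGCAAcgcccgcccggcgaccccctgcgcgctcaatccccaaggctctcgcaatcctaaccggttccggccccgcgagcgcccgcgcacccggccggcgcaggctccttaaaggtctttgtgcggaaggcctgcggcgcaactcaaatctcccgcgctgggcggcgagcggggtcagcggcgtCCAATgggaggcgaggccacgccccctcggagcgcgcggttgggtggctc
Top2a: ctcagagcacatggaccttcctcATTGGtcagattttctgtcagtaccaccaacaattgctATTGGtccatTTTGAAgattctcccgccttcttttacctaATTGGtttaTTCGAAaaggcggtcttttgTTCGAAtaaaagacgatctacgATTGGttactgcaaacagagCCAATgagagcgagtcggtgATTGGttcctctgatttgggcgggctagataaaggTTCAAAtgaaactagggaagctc
Cdk1: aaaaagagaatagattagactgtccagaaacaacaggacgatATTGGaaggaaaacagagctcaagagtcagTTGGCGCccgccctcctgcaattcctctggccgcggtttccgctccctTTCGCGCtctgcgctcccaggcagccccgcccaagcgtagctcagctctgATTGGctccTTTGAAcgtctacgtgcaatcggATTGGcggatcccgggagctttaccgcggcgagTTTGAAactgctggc
Tubb5: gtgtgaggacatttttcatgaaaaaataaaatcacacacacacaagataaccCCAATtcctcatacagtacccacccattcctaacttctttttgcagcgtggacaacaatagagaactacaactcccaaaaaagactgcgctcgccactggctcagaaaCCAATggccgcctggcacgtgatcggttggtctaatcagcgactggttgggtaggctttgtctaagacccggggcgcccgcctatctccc
H2afz: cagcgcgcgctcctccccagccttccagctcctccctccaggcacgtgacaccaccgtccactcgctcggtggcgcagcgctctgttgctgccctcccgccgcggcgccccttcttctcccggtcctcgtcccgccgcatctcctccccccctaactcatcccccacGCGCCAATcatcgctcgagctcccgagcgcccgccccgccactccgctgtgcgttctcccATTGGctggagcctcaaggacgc

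The Mcm6 promoter held 2 E2F matches, which begin 109 and 46 bases before the start, and 2 CCAAT boxes. Rrm2 held 1 E2F match and 1 CCAAT box. Top2a had no E2F match but 4 CHR matches and 6 CCAAT boxes, and Cdk1 had all 3 motifs, with 2 E2F, 2 CHR and 3 CCAAT matches. Tubb5 held only 2 CCAAT boxes. A promoter window was found for 36 of the 44 members (H2afz under its newer name H2az1). Missing were Aurkb, Ccna2, Ccne2, Gins2, Kif20a, Mcm4, Stmn1 and Tpx2. A CCAAT box was present in 30 of the 36 (83.3%), against 33.8% of all 32851 windows in the table. CHR matches were present in 12 of 36 (33.3%) against 17.1%, and E2F matches in 12 of 36 (33.3%) against 7.89%. The member shares are per gene, and 3 members with more than 1 window counted if any window matched, while the other shares are per window. For 28 of the 39 member windows the bases after the start lay in an annotated transcript of the gene. For Mcm6 they did not. By role, E2F letters stood in 4 of 8 initiation genes, 3 of 5 synthesis genes, 2 of 7 mitotic entry genes and 1 of 9 spindle genes. They also stood in 1 of 2 chromosome genes, 1 of 3 abundant genes and 0 of 2 mitotic exit genes. CHR letters stood in none of the 5 synthesis genes and in 2 of 8 initiation genes, 3 of 7 mitotic entry genes and 2 of 9 spindle genes. Both motif counts rest on few genes per role, and CHR letters stood in 2 of 2 mitotic exit, 2 of 2 chromosome and 1 of 3 abundant genes. These are counts of letters in a window and say nothing about binding in these tissues.

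Per library, the 44 members together took 0.124, 0.172, 0.177, 0.482 and 0.338% of usable counts in acetone-treated epidermis and 0.516, 0.179, 0.636, 0.342 and 0.206% in DNFB-treated epidermis. In pancreas they took 0.0208, 0.0343, 0.0388, 0.0827 and 0.0622% with PBS and 0.107, 0.175, 0.0881, 0.216 and 0.155% with caerulein. Both epidermis groups lay above every PBS library, the epidermis groups overlapped each other, and the lowest caerulein library (18) lay just above the highest PBS library (16), within their counting intervals (0.0732 to 0.105% and 0.0637 to 0.106%, exact binomial 95%). Group means were 0.259 ± 0.149% (SD, n = 5) for acetone, 0.376 ± 0.197% for DNFB, 0.0478 ± 0.0246% for PBS and 0.148 ± 0.0516% for caerulein. These shares rested on 115 to 5176 member counts per library in epidermis, 94 to 975 with caerulein and 27 to 66 with PBS. Fewer dividing cells and less of these RNAs per cell cannot be told apart in bulk tissue.

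Without Hmgb2, Stmn1, Tubb5 and H2afz, the remaining 40 members took 0.0174 to 0.0737% with PBS and 0.0652 to 0.105% with caerulein, so that the pancreas groups then overlapped. In that reduced list PBS libraries 7 and 8, with the most usable counts of their group, had 0.0174 and 0.0192%, and the shallower PBS libraries 15, 16 and 17 had 0.0345, 0.0737 and 0.0555%. The 4 abundant genes alone took 0.00347 to 0.0151% with PBS and 0.0228 to 0.11% with caerulein, with no overlap. In epidermis the 40 members took 0.0945 to 0.270% with acetone and 0.131 to 0.354% with DNFB.

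**Figure D1:**
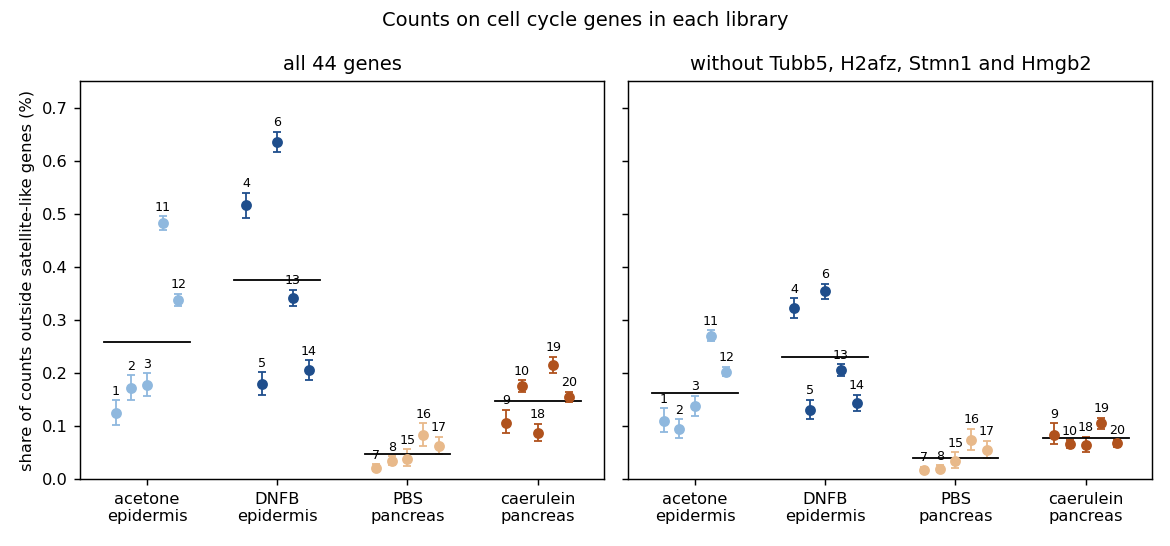
Share of counts outside satellite-like genes (%) that fell on the cell cycle genes, for all 44 members (left) and without the 4 abundant genes (right); each point is 1 library with its label number and exact binomial 95% interval, and black lines are group means of 5 libraries. With all members every caerulein library lies above every PBS library, from 0.0881 against 0.0827%, while on the right the pancreas groups overlap and the epidermis groups overlap in both panels.

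Levels within the list are compared as CPM of usable counts divided by the exon length in kilobases. In DNFB-treated epidermis H2afz was highest at 288 ± 205 (SD, n = 5), then Tubb5 at 199 ± 133 and Stmn1 at 96.0 ± 52.7, and these 3 held the first 3 ranks in acetone-treated epidermis too. Neighbours in this order did not differ beyond their spread. Cdc20, Pcna, Rrm2, Hmgb2 and Ube2c followed at 36.2, 33, 31.9, 28.6 and 27.4 with DNFB. Mki67, the most used proliferation marker, stood at 14.2 ± 7.57 with acetone and 19.5 ± 6.58 with DNFB, and Cdc6 was lowest with DNFB at 1.66 ± 1.59. In pancreas Tubb5 was highest in both groups, at 15.9 ± 15.6 with PBS and 145 ± 93 with caerulein, and H2afz was next at 7.70 ± 5.86 and 94.3 ± 70.8. With PBS the cyclin genes Ccna2, Ccnb2 and Ccne1 and the kinase genes Aurkb and Plk1 had no count in any library.

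Counts followed transcript length more closely in the shallow libraries than in the deep ones. Over the 44 members, which share each library, Spearman's rho between count and exon length was 0.45, 0.15 and 0.41 in acetone 1, 2 and 3 but -0.13 and -0.05 in acetone 11 and 12. In the PBS libraries it was 0.26 to 0.501. In caerulein 9 and 18 it was 0.43 and 0.30, against 0.13, 0.02 and 0.01 in caerulein 10, 19 and 20. Mki67, with 10061 exonic bases, made up 15.5% of the member counts in acetone 3 and 2.80% in acetone 11, whereas Tubb5 and H2afz together made up 19.6 and 35.8% in the same libraries. These correlations are descriptions, and their part in the comparisons was not tested.

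**Figure D2:**
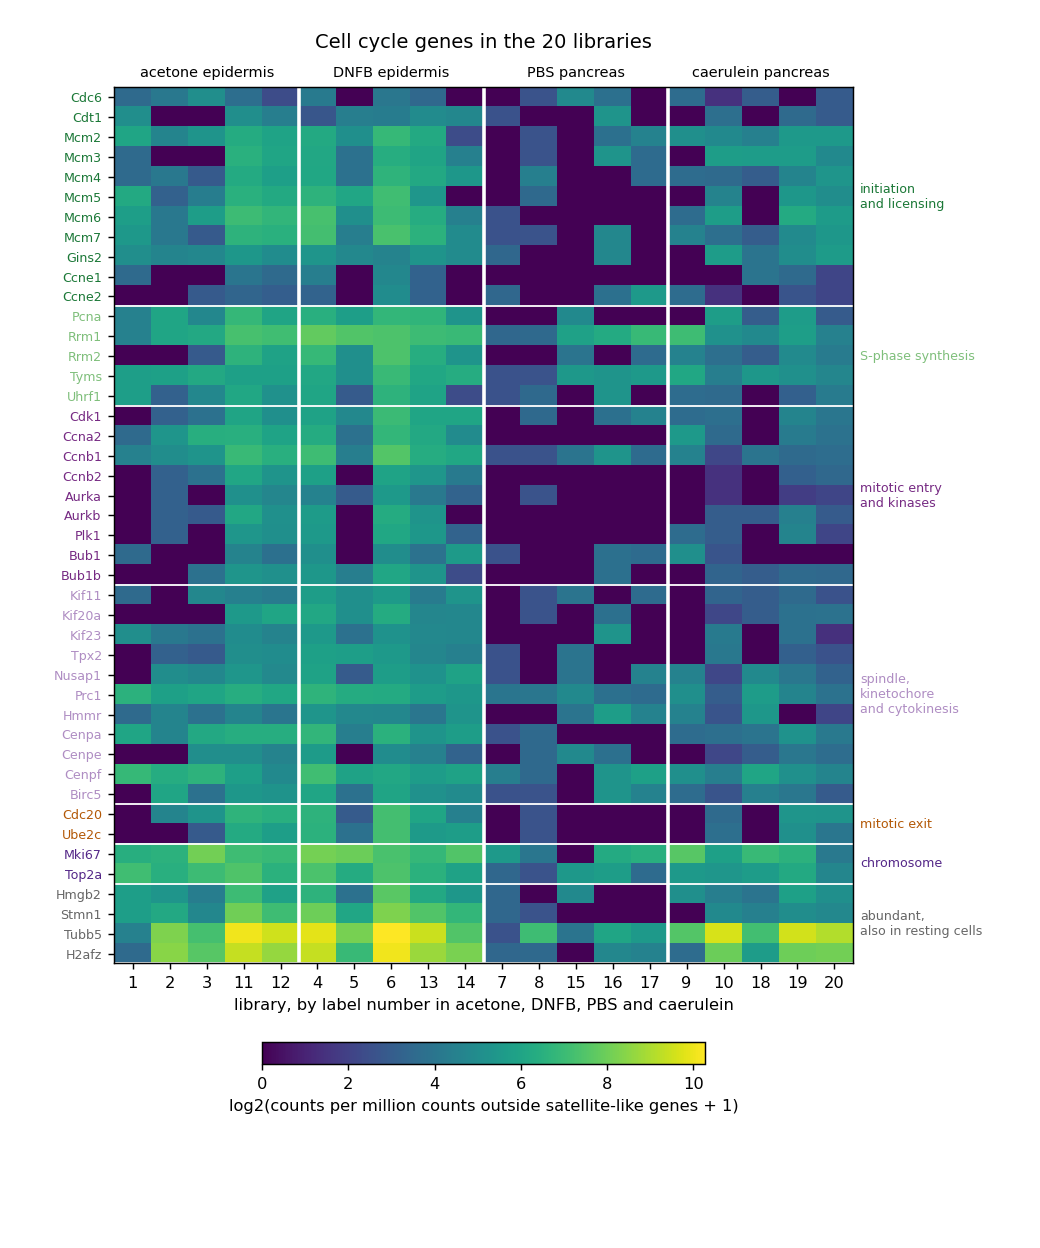
Levels of the 44 cell cycle genes (rows, coloured and grouped by role) in the 20 libraries (columns, by label number), as log2(CPM of usable counts + 1). Acetone 11 and 12 and DNFB 4, 6 and 13 are filled throughout, the shallow epidermis libraries have gaps in the mitotic genes, and the 5 PBS libraries hold only 15 to 26 of the 44 genes.

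In epidermis the comparison of DNFB with acetone asks whether the division programme changed in chronic dermatitis. No member passed the threshold (edgeR quasi-likelihood test, adjusted p under 0.05 over 7265 genes). Among all genes tested 2, or 0.0275%, were called higher with DNFB. Of the 37 members that passed the filter on low counts, 31 had a fold change above 0 and 6 below, with a median log2 fold change of 0.28 against 0.02 over all genes tested and a range of -0.29 to 1.27. At an unadjusted p under 0.05 there was 1 member, Cdk1, where 2.95% of all genes were higher at that level. DESeq2 called none of the 44, with none at an unadjusted p under 0.05. No member had every DNFB library above every acetone library, where 0.733% of all genes with a count did.

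The spread within groups was larger than the difference. The mean over the list of log2(normalized CPM plus 1 count of the median library) was 2.95 ± 0.79 (SD, n = 5) with acetone and 3.52 ± 0.84 with DNFB, a difference of 0.57 against a replicate SD of 0.82. Normalized CPM here are counts relative to library size (CPM) after TMM scaling within the tissue. Per library the list means were 2.08, 2.53, 2.57, 3.89 and 3.69 with acetone and 4.04, 2.48, 4.55, 3.63 and 2.91 with DNFB. Acetone 11 and 12 and DNFB 4, 6 and 13 were high, and the other 5 were low. The same 5 libraries had the most usable counts in epidermis (351566 to 1073987, against 92640 to 232895). They also had the most hair matrix and hair shaft markers, keratins and regulators of the growing hair. All 15 of these markers that were found had counts in both groups. Together they took 0.233 to 0.945% of usable counts in those 5 libraries and 0.00969 to 0.0726% in the others. The part of depth and of hair follicle content in these values was not tested.

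Which libraries entered decided the size of the difference. Acetone 11 and 12 had the highest list means of their group, so leaving them out by itself raises the difference. Without acetone 11 and 12 the median log2 fold change of the 37 members was 1.22, where that of all genes was 0.16. Then 12 members were higher at an unadjusted p under 0.05 (Rrm2, Kif20a, Ube2c, Mcm3, Cdk1, Tpx2, Mcm4, Plk1, Mcm7, Bub1b, Stmn1 and Rrm1), where 6.79% of all genes were, and none passed the adjusted threshold (lowest adjusted p = 0.165). Without DNFB 6 the median was 0.01, 19 of 37 members lay above 0, and none reached an unadjusted p under 0.05. Within the label numbers the groups went different ways. Among numbers up to 10, DNFB 4 and 6 had list means above acetone 1, 2 and 3 and DNFB 5 lay among them, whereas among numbers above 10 both DNFB libraries lay below both acetone libraries. Scaled and fitted on their own, the numbers up to 10 gave a difference in the list mean of 1.19, with 13 of 15 tested members above 0 (median log2 fold change 0.97), and the numbers above 10 gave -0.66, with 10 of 41 above 0 (median -0.43). No member passed the threshold in either fit, nor with a term for label numbers above 10 added to the fit of all 10 libraries, where 30 of 37 lay above 0 with a median of 0.45. Whether the difference between these 2 sets of libraries exceeds their spread was not tested.

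Among the genes of initiation and licensing, 6 of 7 tested lay above 0, with a median log2 fold change of 0.22 and no call. Mcm2, a subunit of the replicative helicase, had 19.3, 8.52, 10.7, 16.6 and 15.3 normalized CPM in the acetone libraries and 15.5, 8.49, 30.3, 17.2 and 1.12 in the DNFB libraries (log2 fold change 0.08 ± 0.57 (SE), adjusted p = 0.995). Mcm6, another subunit of the same ring, had 16.1, 5.68, 14.2, 27.3 and 26.9 normalized CPM in the acetone libraries and 32.2, 8.49, 33.6, 18.8 and 5.58 in the DNFB libraries (log2 fold change 0.08 ± 0.54 (SE), adjusted p = 0.995). Both overlapped between the groups, and their fold changes turned negative with ribosomal protein scaling and without DNFB 6. Mcm3, Mcm4, Mcm5 and Mcm7 had log2 fold changes of 0.36, 0.64, 0.22 and 0.64, and Gins2, of the GINS complex that activates the helicase, had -0.12. The licensing factors Cdc6 and Cdt1 and the cyclin E genes Ccne1 and Ccne2 were below the filter, with exact permutation p of 0.198, 0.405, 0.810 and 0.714 for single genes.

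The S-phase synthesis genes lay above 0 in 5 of 5 tested, with a median of 0.28 and no call. Pcna, the replication clamp, had 6.44, 22.7, 7.12, 24.002 and 16.1 normalized CPM in the acetone libraries and 18.5, 13.6, 28.8, 23.9 and 10.04 in the DNFB libraries (log2 fold change 0.28 ± 0.48 (SE), adjusted p = 0.976). Rrm2, the regulated subunit of ribonucleotide reductase, had 0, 0, 1.78, 20.5 and 15.04 normalized CPM in the acetone libraries and 24.4, 8.49, 43.3, 19.6 and 10.04 in the DNFB libraries (log2 fold change 1.14 ± 0.69 (SE), adjusted p = 0.923). It was absent or at 1 count in acetone 1, 2 and 3 and at 56 to 105 counts in acetone 11 and 12, so the acetone libraries fell apart more widely than the groups. Rrm1, the partner subunit, had 6.44, 22.7, 19.6, 32.6 and 35.2 normalized CPM in the acetone libraries and 47.04, 45.9, 43.3, 30.6 and 32.3 in the DNFB libraries (log2 fold change 0.70 ± 0.48 (SE), adjusted p = 0.945). In Rrm1, 3 of the 5 DNFB libraries exceeded every acetone library. Tyms, thymidylate synthase, and Uhrf1, which helps copy DNA methylation, had log2 fold changes of 0.26 and 0.22.

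Of the genes of mitotic entry and its kinases, 6 of 7 tested lay above 0, with a median of 0.52. Cdk1, the kinase of mitotic entry, had 0, 2.84, 3.56, 13.1 and 8.59 normalized CPM in the acetone libraries and 12.5, 6.79, 32.9, 14.9 and 16.7 in the DNFB libraries (log2 fold change 1.27 ± 0.58 (SE), adjusted p = 0.834, unadjusted p = 0.0445). It had the largest log2 fold change of the tested members, and 3 of 5 DNFB libraries exceeded every acetone library. Ccnb1, cyclin B1, had 6.44, 11.4, 10.7, 26.1 and 22.6 normalized CPM in the acetone libraries and 27.98, 5.10, 47.5, 18.8 and 17.8 in the DNFB libraries (log2 fold change 0.52 ± 0.54 (SE), adjusted p = 0.973). Ccna2, cyclin A2, and Ccnb2, cyclin B2, had log2 fold changes of -0.04 and 0.22. For Ccnb1 and Ccna2 55.0 and 57.1% of the nonzero deposited values were not whole, which marks reads that could come from more than one gene, so their values are less certain. The kinases Plk1, Bub1b and Aurkb had 0.63, 0.61 and 0.24, and Bub1 and Aurka were below the filter, with exact permutation p of 0.254 and 0.341.

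In the group of spindle, kinetochore and cytokinesis, 7 of 10 tested lay above 0, with a median of 0.23. Kif11, the kinesin that separates the spindle poles, had 3.22, 0, 7.12, 4.49 and 4.57 normalized CPM in the acetone libraries and 10.7, 8.49, 12.3, 4.31 and 10.04 in the DNFB libraries (log2 fold change 1.09 ± 0.53 (SE), adjusted p = 0.878). For Kif11 4 of the 5 DNFB libraries exceeded every acetone library. Tpx2, which activates Aurora A on the spindle, had 0, 2.84, 1.78, 6.83 and 7.79 normalized CPM in the acetone libraries and 11.9, 13.6, 11.96, 5.88 and 5.58 in the DNFB libraries (log2 fold change 0.92 ± 0.55 (SE), adjusted p = 0.905). Cenpa, the histone of centromeres, had 19.3, 8.52, 19.6, 17.8 and 21.2 normalized CPM in the acetone libraries and 22.6, 5.10, 24.3, 9.01 and 13.4 in the DNFB libraries (log2 fold change -0.21 ± 0.48 (SE), adjusted p = 0.976). Apart from acetone 2, the acetone libraries lay at 17.8 to 21.2 whether shallow or deep. The remaining 7 tested members ran from -0.23 for Prc1, a crosslinker of spindle microtubules, to 0.68 for Kif20a, a cytokinesis kinesin, and Hmmr was below the filter with an exact permutation p of 0.167.

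The mitotic exit genes lay above 0. Cdc20, the activator of the anaphase-promoting complex, had 0, 8.52, 10.7, 21.5 and 22.3 normalized CPM in the acetone libraries and 20.8, 1.70, 37.4, 14.9 and 5.58 in the DNFB libraries (log2 fold change 0.24 ± 0.66 (SE), adjusted p = 0.986). Ube2c, its ubiquitin-conjugating partner, had 0, 0, 1.78, 16.2 and 13.4 normalized CPM in the acetone libraries and 20.2, 3.40, 37.7, 10.97 and 13.4 in the DNFB libraries (log2 fold change 1.07 ± 0.71 (SE), adjusted p = 0.945). Both were at or near 0 in acetone 1 and high in acetone 11 and 12 and in DNFB 6. Of the nonzero Ube2c values 50% were not whole.

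The chromosome genes went in different directions. Mki67, which coats mitotic chromosomes and is the antigen of Ki-67 staining, had 25.8, 34.1, 74.7, 28.3 and 30.3 normalized CPM in the acetone libraries and 58.3, 62.8, 40.7, 26.6 and 46.8 in the DNFB libraries (log2 fold change 0.28 ± 0.50 (SE), adjusted p = 0.976). Top2a, the topoisomerase that untangles replicated DNA, had 41.9, 31.2, 35.6, 36.3 and 23.6 normalized CPM in the acetone libraries and 34.5, 20.4, 42.97, 21.9 and 15.6 in the DNFB libraries (log2 fold change -0.29 ± 0.45 (SE), adjusted p = 0.976). Neither group stood apart in these genes, which are also among the longest of the list.

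The 4 abundant genes lay above 0, with a median of 0.50 and no call. Tubb5, a beta-tubulin, had 6.44, 111, 40.9, 221 and 189 normalized CPM in the acetone libraries and 192, 73.03, 318, 160.2 and 45.7 in the DNFB libraries (log2 fold change 0.46 ± 0.78 (SE), adjusted p = 0.976). H2afz, the histone variant H2A.Z, had 3.22, 122, 53.4, 140.3 and 102 normalized CPM in the acetone libraries and 139, 30.6, 271, 97.1 and 76.97 in the DNFB libraries (log2 fold change 0.54 ± 0.76 (SE), adjusted p = 0.976). Stmn1, stathmin, which destabilizes microtubules, had 16.1, 25.6, 7.12, 54.6 and 34.1 normalized CPM in the acetone libraries and 52.99, 16.98, 80.7, 40.7 and 29.002 in the DNFB libraries (log2 fold change 0.63 ± 0.57 (SE), adjusted p = 0.965). In all 3 the highest library was DNFB 6 and the lowest was an acetone library. Hmgb2, a chromatin protein, had a log2 fold change of 0.41. Of the nonzero values of H2afz and Hmgb2, 68.4 and 70.6% were not whole.

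**Figure D3:**
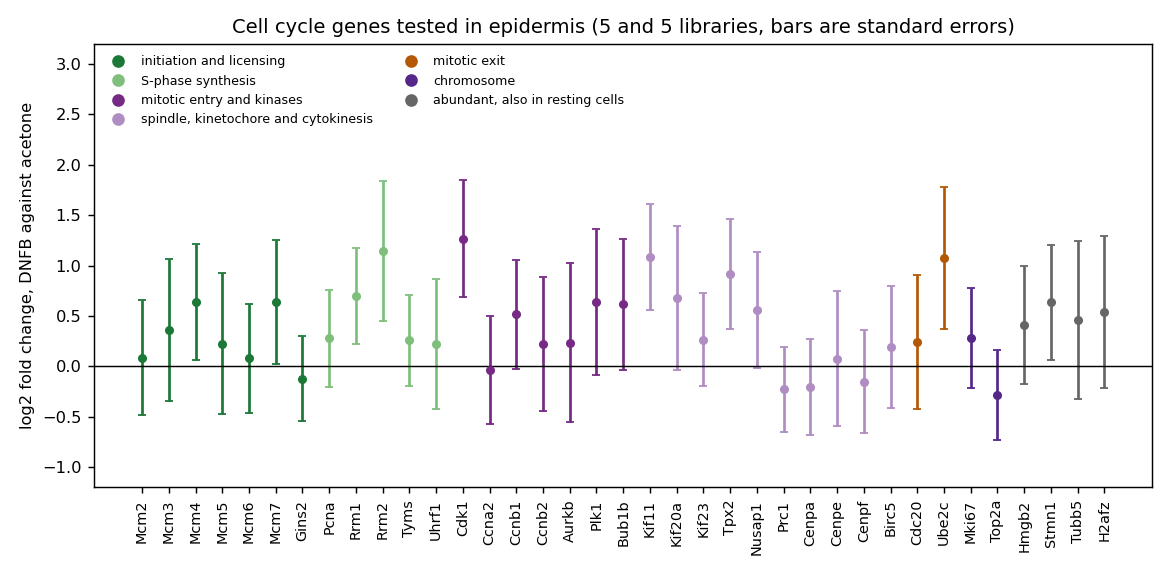
Fitted log2 fold change of DNFB against acetone for the 37 members tested in epidermis, coloured by role, with standard errors as bars (5 and 5 libraries). Fold changes run from -0.29 (Top2a) to 1.27 (Cdk1), 31 of 37 lie above 0, and none passes the adjusted threshold.

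In pancreas the comparison of caerulein with PBS asks the same of chronic pancreatitis. Only Tubb5 among the 44 members reached the filter on low counts, and it was called higher. It reached the filter mostly through its counts with caerulein, so the sign of this single test is partly set by the filter. Over the 946 genes tested, 8.14% were called higher with caerulein. Tubb5 (chr17:35833921-35838306, GRCm38) had 1.46, 22.7, 1.98, 8.99 and 6.18 normalized CPM in the PBS libraries and 19.4, 87.7, 15.6, 73.7 and 62.5 in the caerulein libraries, from 1, 26, 1, 5 and 4 counts in the PBS libraries and 16, 442, 20, 286 and 318 in the caerulein libraries (log2 fold change 2.58 ± 0.76 (SE), adjusted p = 0.0371). Its groups overlapped, since PBS 8 lay above caerulein 9 and 18, and 3 of 5 caerulein libraries exceeded every PBS library. Leaving out 1 library at a time kept the log2 fold change at 2.08 to 3.48, but the call was kept in 3 of 10 fits, with adjusted p from 0.0124 to 0.145. It was lost without caerulein 10, 19 or 20 (adjusted p 0.0797, 0.0777 and 0.0795) and without PBS 7, 15, 16 or 17 (0.126, 0.145, 0.119 and 0.126). It was also lost when libraries were scaled by ribosomal protein genes (1.68, adjusted p = 0.182) or by DESeq2's size factors (3.07, adjusted p = 0.0599). With a term for label numbers above 10 it stayed called (2.68, adjusted p = 0.0348). Fitted within the numbers above 10 it was called too (3.27, adjusted p = 0.0111), where 21.7% of all genes were called higher, and within the numbers up to 10, with 2 libraries per group, it was not (2.11, adjusted p = 0.999).

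For the other 43 members the log2 values were set against each other gene by gene with an exact permutation test (two-sided, 43 unadjusted tests, smallest possible p 0.00794). The difference lay above 0 for 32 of the 44 members, and 4 of the 43 had p under 0.05 (Mcm2, Ccna2, Aurkb and Plk1, all higher), or 9.30%, where 4.41% of the 37949 genes below the filter with a count had such a p and were higher. Genes with counts in too few libraries cannot reach such a p. The wider set was not matched to the members in counts, so these shares are not a like comparison. No member had every caerulein library above every PBS library, where 0.864% of all genes with a count did. Over the list the mean of the log2 values was 0.95 ± 0.23 with PBS and 1.46 ± 0.27 with caerulein, a difference of 0.51 against a replicate SD of 0.25. Per library these means were 0.89, 0.80, 0.73, 1.33 and 0.98 with PBS and 1.20, 1.5, 1.17, 1.81 and 1.61 with caerulein. PBS 16 lay above caerulein 9 and 18. Usable counts were 69592 to 201611 with PBS (median 90019) and 87788 to 591505 with caerulein (median 376579). The part of depth in these means and in the exact tests was not tested. With ribosomal protein scaling the difference was 0.17, and with library totals 1.44. It was 0.55 within label numbers up to 10 and 0.59 within those above 10.

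Of the 11 members of initiation and licensing, 8 lay above 0, among them all 6 MCM helicase genes. Mcm6 had 1, 0, 0, 0 and 0 counts in the PBS libraries and 1, 29, 0, 29 and 29 in the caerulein libraries (difference in mean log2 values 1.68, exact permutation p = 0.0873), a ratio of summed normalized counts of 19.3-fold (95% counting interval 3.38 to 771). Mcm2 had 0, 1, 0, 1 and 2 counts in the PBS libraries and 3, 16, 3, 17 and 27 in the caerulein libraries (difference in mean log2 values 1.33, exact permutation p = 0.0159), a ratio of 3.62-fold (95% counting interval 1.35 to 13.7). Most of these counts sat in caerulein 10, 19 and 20, and caerulein 18 had no Mcm6 count. Mcm5 summed to 48 counts against 2, Mcm3 to 72 against 5, Mcm7 to 46 against 4, Mcm4 to 41 against 5 and Gins2 to 71 against 4. These sums are not scaled for depth, and their normalized ratios were smaller, at 5.27, 3.16, 2.52, 1.80 and 3.90-fold. The 95% counting intervals of Mcm7 (0.922 to 9.66) and Mcm4 (0.712 to 5.84) include no change. Cdc6, Cdt1 and Ccne2 lay below 0, on 7, 15 and 6 counts with caerulein and 4, 4 and 7 with PBS. For Ccne2 the ratio was 0.188-fold (95% counting interval 0.0522 to 0.654), lower with caerulein, with an exact permutation p of 0.254. The intervals of Cdc6 (0.0976 to 1.79) and Cdt1 (0.262 to 3.41) include no change.

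Among the synthesis genes Pcna had 0, 0, 2, 0 and 0 counts in the PBS libraries and 0, 29, 1, 19 and 4 in the caerulein libraries (difference in mean log2 values 0.93, exact permutation p = 0.206), and Rrm2 had 0, 0, 1, 0 and 1 counts in the PBS libraries and 2, 7, 1, 11 and 11 in the caerulein libraries (difference in mean log2 values 0.90, exact permutation p = 0.0794). Most Pcna counts were in caerulein 10 and 19. Rrm1 had 2, 2, 4, 6 and 11 counts in the PBS libraries and 12, 20, 4, 20 and 13 in the caerulein libraries (difference in mean log2 values -0.31, exact permutation p = 0.603). Its highest PBS count was in library 17, one of the shallow ones.

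The mitotic genes differed among themselves. Ccna2 had 0, 0, 0, 0 and 0 counts in the PBS libraries and 4, 6, 0, 7 and 8 in the caerulein libraries (difference in mean log2 values 1.3, exact permutation p = 0.0476). With no PBS count, its summed normalized level was at least 1.83-fold higher with caerulein than 3 counts over the PBS group allow. Aurkb and Plk1, both kinases of mitosis, had 17 and 16 counts with caerulein and none with PBS, or 1.24-fold and 1.17-fold by the same floor (exact permutation p = 0.0476 for both). For each of Ccna2, Aurkb and Plk1, 4 of 5 caerulein libraries held counts. These floors rest on TMM scaling and would change with another scaling. Cdk1 had 0, 2, 0, 1 and 2 counts in the PBS libraries and 1, 7, 0, 9 and 9 in the caerulein libraries (difference in mean log2 values 0.12, exact permutation p = 0.881), and Ccnb1 had 1, 1, 1, 3 and 1 counts in the PBS libraries and 2, 2, 2, 4 and 7 in the caerulein libraries (difference in mean log2 values -0.38, exact permutation p = 0.381). In the group of spindle, kinetochore and cytokinesis 6 of 11 lay above 0. There Cenpa had 1, 2, 0, 0 and 0 counts in the PBS libraries and 1, 7, 2, 14 and 10 in the caerulein libraries (difference in mean log2 values 0.95, exact permutation p = 0.0794), and Kif11 and Tpx2 had differences of -0.06 and 0.02. Cdc20 had 0, 1, 0, 0 and 0 counts in the PBS libraries and 0, 6, 0, 15 and 23 in the caerulein libraries (difference in mean log2 values 0.99, exact permutation p = 0.167), and Ube2c had 0, 1, 0, 0 and 0 counts in the PBS libraries and 0, 7, 0, 13 and 9 in the caerulein libraries (difference in mean log2 values 0.78, exact permutation p = 0.167). In both mitotic exit genes all caerulein counts came from libraries 10, 19 and 20.

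Mki67 had 9, 3, 0, 6 and 8 counts in the PBS libraries and 17, 31, 17, 36 and 10 in the caerulein libraries (difference in mean log2 values 0.61, exact permutation p = 0.548), a ratio of 0.937-fold (95% counting interval 0.607 to 1.5). Top2a had 2, 1, 3, 4 and 1 counts in the PBS libraries and 4, 23, 7, 28 and 15 in the caerulein libraries (difference in mean log2 values 0.53, exact permutation p = 0.270), a ratio of 1.54-fold (95% counting interval 0.813 to 3.21). For Mki67 the difference in mean log2 values and the ratio of sums differ in sign. Both intervals include no change under TMM scaling, and no difference in the chromosome genes was detected. The scaling matters here. As CPM of usable counts per exon kilobase, Mki67 stood at 4.51 ± 3.81 with PBS and 9.62 ± 6.68 with caerulein. By the same measure Top2a stood at 2.69 ± 2.39 and 5.25 ± 1.97, and these differences were not tested.

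H2afz (chr3:137864487-137866922, GRCm38) had 2, 2, 0, 2 and 2 counts in the PBS libraries and 1, 138, 7, 96 and 161 in the caerulein libraries (difference in mean log2 values 2.14, exact permutation p = 0.0635), a ratio of 11.1-fold (95% counting interval 5.56 to 25.8). The caerulein libraries 10, 19 and 20 held nearly all of its counts, and caerulein 9 held 1. Stmn1 had 2, 1, 0, 0 and 0 counts in the PBS libraries and 0, 16, 3, 12 and 16 in the caerulein libraries (difference in mean log2 values 0.99, exact permutation p = 0.111), and Hmgb2 had a difference of 1.18 (exact permutation p = 0.103).

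Fits that admit low genes called more members. With no filter edgeR called H2afz (2.99, adjusted p = 0.0255) and Tubb5 (2.58, adjusted p = 0.0378), where 0.746% of all genes were called higher, and it called the same pair with a filter of 10 counts in 2 libraries, where 4.5% were. DESeq2 called H2afz (3.72, adjusted p = 0.00596), Tubb5 (3.08, adjusted p = 0.0119) and Mcm6 (4.08, adjusted p = 0.0437), where 7.63% were. Without caerulein 9 and 18, the 2 shallowest of their group, edgeR tested 8 members and called H2afz, Mcm6 and Tubb5 (log2 fold changes 2.96, 3.67 and 2.43), where 18.1% of all genes were called higher. In that fit Rrm1 lay lower with caerulein (-1.59, unadjusted p = 0.0181, adjusted p = 0.0583). Fitted fold changes of genes with 1 PBS count, as Mcm6 has, depend on the prior count and are no bound.

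Other cell types differed between the same libraries. Myeloid markers took 0.00744 to 0.0890% of usable counts with PBS and 1.60, 0.965 and 0.245% in caerulein 10, 19 and 20, against 0.104 and 0.139% in caerulein 9 and 18. All 10 were found with a count in both groups, and Lyz2, 1 of the 4 tested, was called higher, where 8.14% of all genes were. Fibroblast markers (6 of 6 with counts in both groups) took 0.00694 to 0.284% with PBS and 0.121 to 1.004% with caerulein, with Dcn, 1 of the 4 tested, called higher. Acinar markers (13 of 13 with counts in both) took 0.823 to 8.79% with caerulein against 5.24 to 27.3% with PBS. Of the 10 tested, 8 were called lower, where 38 of all 946 genes tested were. Duct markers took 0.0129 to 0.0317% with PBS and 0.0581 to 0.299% with caerulein. Islet markers took 0.0245 to 0.0496% with PBS and 0.0261 to 0.218% with caerulein, and lymphoid markers 0.000496 to 0.0230% and 0.00342 to 0.0956%. Ribosomal protein genes, a measure of the share of ordinary mRNA, took 0.728 to 1.49% with PBS and 1.25, 3.10, 1.51, 4.37 and 3.25% in caerulein 9, 10, 18, 19 and 20, so caerulein 10, 19 and 20 were also highest in this share. The part of these cell types and of RNA composition in the member values was not tested.

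**Figure D4:**
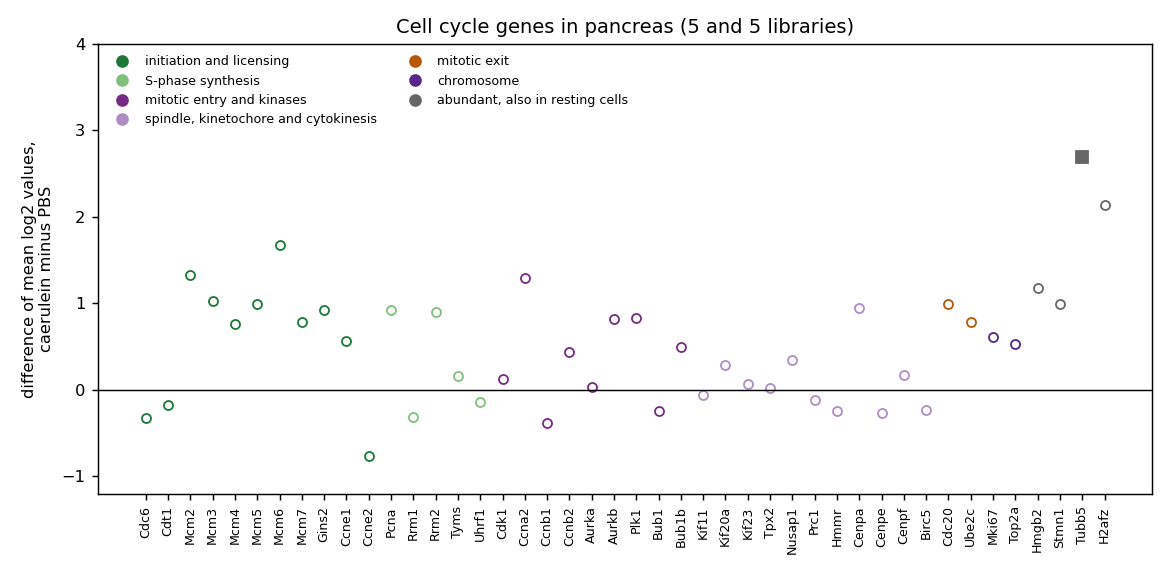
Difference of the mean log2 values (caerulein minus PBS, 5 and 5 libraries) for the 44 members, coloured by role; the filled square is Tubb5, the only member that passed the filter on low counts, and open circles are members compared singly. Tubb5 (2.69) and H2afz (2.14) lie highest, followed by Mcm6 (1.68) and Mcm2 (1.33), while the spindle group runs from -0.27 (Cenpe) to 0.95 (Cenpa).

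Between the control groups the list lay higher in acetone-treated epidermis than in PBS-treated pancreas. Tissue and vehicle differ together here and cannot be told apart. In the fit of all 20 libraries 36 members were tested, all 36 had a fold change above 0, and 9 were called higher (Ccna2, H2afz, Stmn1, Mcm6, Cenpa, Top2a, Cdc20, Pcna and Ccnb2), or 25% of those tested, where 6.83% of all 8336 genes tested were. Members enter this fit only if some group holds enough counts, mostly epidermis, so the sign of those tested is partly set by the filter. Their median log2 fold change was 2.09, and that of all genes tested was 0.30. Every acetone library lay above every PBS library for 5 members (Top2a, Ccna2, Cenpa, Prc1 and Mcm6), or 11.4% of the 44, where 1.34% of all genes with a count did so. Such a separation needs counts in every acetone library, and the wider set was not matched to the members in counts.

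The called members span the cycle. Mcm6 had 9.53, 3.13, 8.98, 15.96 and 14.7 normalized CPM in the acetone libraries and 2.52, 0, 0, 0 and 0 in the PBS libraries (adjusted p = 0.0125), on 255 counts against 1, a ratio of 31.1-fold (95% counting interval 5.53 to 1233). Pcna had 3.81, 12.5, 4.49, 14.03 and 8.83 normalized CPM in the acetone libraries and 0, 0, 5.64, 0 and 0 in the PBS libraries (adjusted p = 0.0422), on 197 counts against 2, a ratio of 12.01-fold (95% counting interval 3.28 to 99.8). Ccna2 had 1.91, 7.84, 14.6, 10.8 and 8.53 normalized CPM in the acetone libraries and 0, 0, 0, 0 and 0 in the PBS libraries (adjusted p = 0.00595). It was at 0 in all 5 PBS libraries. Its summed normalized counts in acetone-treated epidermis were 6.99-fold a floor of 3 counts over the PBS group. The 95% counting interval of that ratio began at 5.62-fold. By the same measure Ccnb2 (0, 1.57, 2.24, 8.10 and 5.44 normalized CPM in the acetone libraries and 0, 0, 0, 0 and 0 in the PBS libraries, adjusted p = 0.0473) was at 4.51-fold the floor, although acetone 1 had no count of it. Its 95% counting interval began at 3.61-fold.

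Cenpa had 11.4, 4.70, 12.3, 10.4 and 11.6 normalized CPM in the acetone libraries and 2.52, 3.58, 0, 0 and 0 in the PBS libraries (log2 fold change 2.86 ± 0.80, adjusted p = 0.0213). Cdc20 had 0, 4.70, 6.73, 12.5 and 12.2 normalized CPM in the acetone libraries and 0, 1.79, 0, 0 and 0 in the PBS libraries (adjusted p = 0.0414), on 202 counts against 1, a ratio of 24.6-fold (95% counting interval 4.37 to 977). Top2a had 24.8, 17.2, 22.4, 21.2 and 12.9 normalized CPM in the acetone libraries and 5.04, 1.79, 8.45, 9.24 and 2.47 in the PBS libraries (1.88 ± 0.58, adjusted p = 0.0369). For Cenpa and Top2a no acetone library came as low as the highest PBS library, while acetone 1 had no Cdc20 count. Stmn1 had 9.53, 14.1, 4.49, 31.9 and 18.7 normalized CPM in the acetone libraries and 5.04, 1.79, 0, 0 and 0 in the PBS libraries (3.52 ± 0.87, adjusted p = 0.0103), and H2afz had 1.91, 67.4, 33.7, 81.99 and 55.9 normalized CPM in the acetone libraries and 5.04, 3.58, 0, 4.62 and 4.95 in the PBS libraries (3.70 ± 0.91, adjusted p = 0.0100). In H2afz acetone 1 lay among the PBS libraries and the other 4 lay far above them. Tubb5 (2.11 ± 0.83, adjusted p = 0.0939) and Mki67 (0.88 ± 0.67, adjusted p = 0.413) were not called.

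DESeq2 called 15 members, the same 9 with Ccnb1, Prc1, Mcm2, Mcm7, Hmgb2 and Tubb5 added, where 8.06% of all genes were called higher. With no filter edgeR called 5 (Ccna2, Cdc20, Mcm6, Stmn1 and H2afz), where 0.965% were. With library totals in place of TMM all 36 tested were called, where 73.4% of all genes were. Leaving out 1 library at a time gave 4 to 13 calls, and Ccna2, H2afz, Mcm6 and Stmn1 were called in all 10 such fits. The lower counts came without acetone 11 (5) or 12 (4) and without PBS 7, 16 or 17 (5, 5 and 4). Without both acetone 11 and 12 only Ccna2 was called (adjusted p = 0.0429), where 0.767% of all genes were, and 29 of 37 members lay above 0 with a median log2 fold change of 1.15. With a term for label numbers above 10 the fit called 5 (Ccna2, H2afz, Stmn1, Mcm6 and Cenpa), where 5.63% of all genes were called higher. Fitted within the numbers up to 10, no member was called (39 tested, 32 above 0, median 1.4), where 0.0323% of all genes were, and 3 had an unadjusted p under 0.05 (Ccna2, Pcna and Top2a). Within the numbers above 10, 20 of 41 were called, where 17.9% of all genes were.

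**Figure D5:**
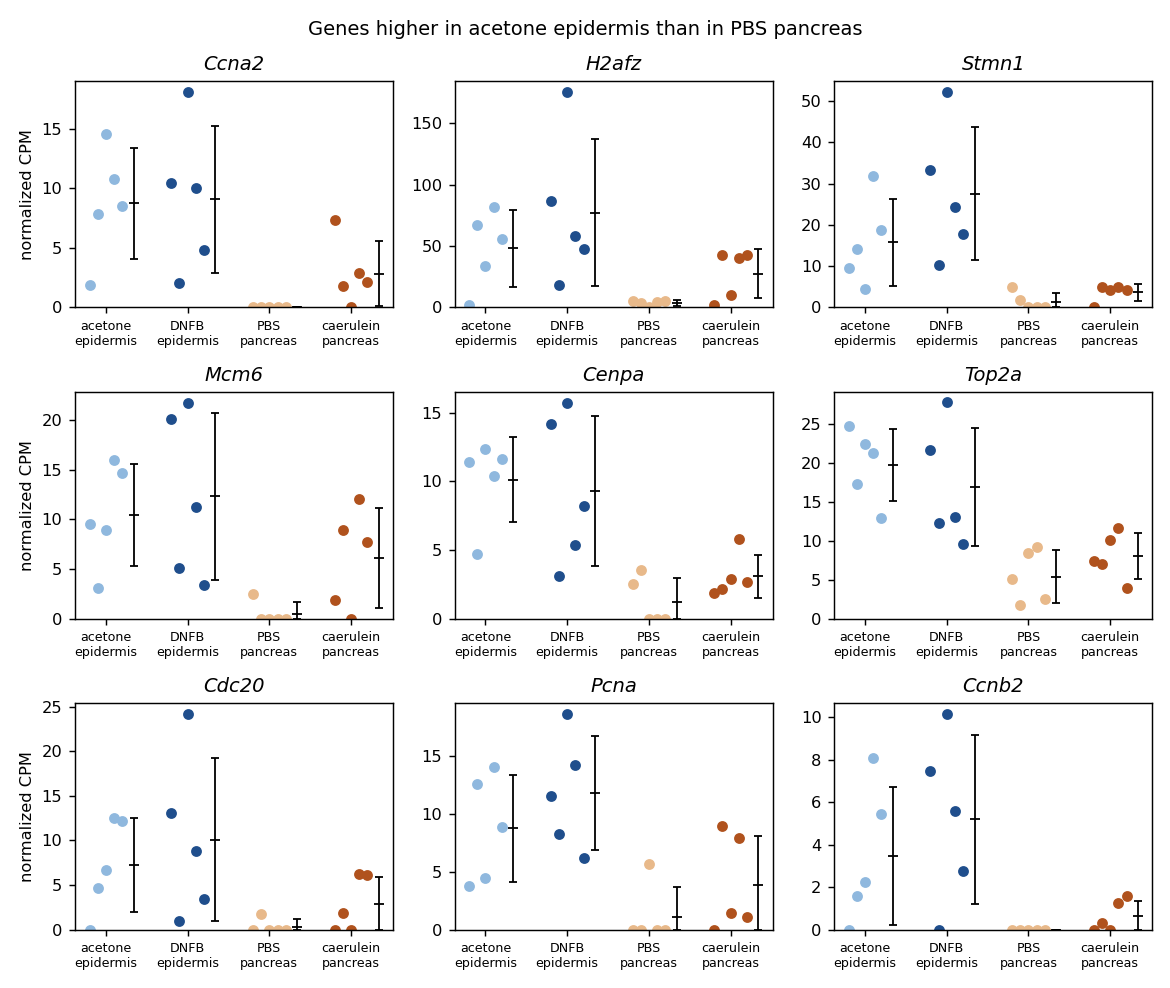
Normalized CPM in the fit of all libraries for the 9 members called higher in acetone-treated epidermis than in PBS-treated pancreas; each point is 1 of 5 libraries in label order, and the black mark is the mean with SD, cut at 0. PBS libraries reach at most 9.24 (Top2a), caerulein means lie between those of PBS and acetone, and DNFB 6 is the highest of the 20 libraries for each of the 9 genes.

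Whether the response to DNFB differed from the response to caerulein was tested as an interaction in the fit of all libraries, which shares its controls with the comparisons above. None of the 36 members tested was called, where 22 of 8336 genes (0.264%) were. Of the 36, 14 lay above 0 (a larger log2 change in epidermis) and 22 below, with a median of -0.76 against -0.38 over all genes tested. At an unadjusted p under 0.05 there were 2, Mcm6 (-3.51 ± 1.36, adjusted p = 0.177) and Ccna2 (-5.46 ± 2.17, adjusted p = 0.184). Their log2 changes with DNFB were 0.08 and -0.04, and with caerulein Mcm6 went from 1 to 88 counts and Ccna2 from 0 to 25. DESeq2 called none of the members for this term. With a term for label numbers above 10 none was called either, nor within the numbers up to 10, where the median was 0.24. Within the numbers above 10, where acetone is represented by libraries 11 and 12, 7 of 41 were called, each with a lower log2 change in epidermis (Tubb5, H2afz, Mcm6, Mcm5, Cdc20, Cenpa and Stmn1), where 9.6% of all genes were called in that direction.

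Other genes of the cycle were taken from 4 further lists. In epidermis none of the tested genes was called with DNFB, by either tool, among 25 other cell cycle regulators (14 tested by edgeR, median log2 fold change 0.02), 13 inhibitors and p53 targets (6 tested, -0.20), 24 other replication genes (13 tested, 0.10) and 37 other mitosis genes (22 tested, 0.26). In pancreas edgeR tested 2 regulators and 2 inhibitors and called none. DESeq2 called Btg2, an antiproliferative p53 target (2.61, adjusted p = 0.0393, 510 counts with caerulein against 23), Pold1, the catalytic subunit of DNA polymerase delta (3.81, adjusted p = 0.0371, 67 against 1), and Pttg1, securin (3.25, adjusted p = 0.0464, 102 against 3), all higher, which is 1 gene each of the inhibitors, the replication genes and the mitosis genes and none of the regulators, where 7.63% of all genes were called higher. Between the controls edgeR called Myc, a growth-promoting transcription factor (3.56, adjusted p = 0.0272, 420 against 3), and Cdc7, the kinase that fires origins (adjusted p = 0.0394, 59 against 0), both higher in epidermis, or 1 of 14 regulators and 1 of 15 replication genes tested, where 6.83% of all genes were. DESeq2 called 3 of 25 regulators, 3 of 13 inhibitors, 4 of 24 replication genes and 4 of 37 mitosis genes there, all higher, where 8.06% of all genes were, among them Cdk4, the cyclin D kinase (2.68, adjusted p = 0.0244), and Cdkn1a, the p21 inhibitor (3.08, adjusted p = 0.0143).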

How the data were processed

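RNA-seq libraries (modified Smart-Seq2 with Nextera XT, without molecular identifiers) were made from epidermis and pancreas, 5 per group. Per the methods and the submitters' processing notes, the authors aligned reads to mm10 (GRCm38) with STAR 2.5.3 and quantified them with RSEM 1.3.1, and the deposited table holds expected counts for 55471 Ensembl genes, of which 94.7% of values were whole. They were rounded to whole counts here. Reads that match several genes are split by RSEM, so values of close copies are less certain. Totals of 791491 to 2232039 counts set the precision. Intervals cover counting error only, and floors (3 counts) cover only that of the group without counts. Ratios of summed normalized counts and floors rest on TMM scaling.

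Genes with low counts were removed with filterByExpr (minimum count 10), libraries were scaled by TMM, and edgeR 4.0.16 (quasi-likelihood test, R 4.3.3) was fitted per tissue, and over all 20 libraries for the tissue difference and the controls, with Benjamini-Hochberg adjustment over all genes tested and a threshold of 0.05. DESeq2 1.42.0, the tool the study names, was an alternative, with other scalings, filters, priors and left-out libraries, and with fits within label numbers up to 10 and above 10 or with a term for them. Members below the filter were compared by exact permutation tests with scipy 1.17.1 on log2(normalized CPM plus 1 count of the median library). The code was tested on simulated counts with 200 changed genes. Usable counts are those outside 12 satellite-like genes, found by an overlap of 50% or more, in words of 15 bases, with the predicted genes Gm10800, Gm10801 and Gm21738. No 2 libraries of a group agreed within sampling noise (40 pairs, lowest chi-square per degree of freedom 2.65).

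The members and lists were chosen with earlier results of these data known. Values per library are given for Mki67, Top2a, Cdk1, Ccnb1, Mcm2, Mcm6, Pcna and Rrm2, for members past the threshold, and in each tissue for the 5 tested members with the lowest p and the 4 with the highest level. Other genes of the cycle are named only past the threshold.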

Additional observations from a re-analysis of the deposited data

Results flagged for a closer look

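Among 78 sets of 5 library values (the named genes and the mean over the list in each group, without 2 sets that were 0 throughout), 10 had a library whose gap to its nearest neighbour exceeded the Dixon limit of 0.71 of the range. About 1 in 20 sets would by chance if values were continuous, which sets with counts in a single library are not. In acetone-treated epidermis library 3 stood high for Mki67 (gap 0.740 of the range, 74.7 normalized CPM against 25.8 to 34.1). Library 1, with 92640 usable counts, stood low for Ccna2 (0.738, on 1 count), Cdc20 (0.732, on 0 counts) and H2afz (0.731, on 1 count), and library 2 stood low for Cenpa (0.801, on 3 counts). In PBS-treated pancreas a single library held all counts of a gene, so that the gap was the whole range (1): Mcm6 in library 7 (1 count), Pcna in library 15 (2 counts), and Cdc20 and Ube2c in library 8 (1 count each). In caerulein-treated pancreas library 9 stood low for Stmn1 (0.843, on 0 counts).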

How the results depend on the processing

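No paired analysis was possible because no label number is shared between groups. The label numbers up to 10 and above 10 each hold all 4 groups, but the sources do not call them batches, and fits within them or with a term for them were chosen after seeing the data. In epidermis no member passed the threshold under any setting or left-out library that was run (0 to 0 calls). The difference in the list mean (0.57) was -0.66 within the numbers above 10 and 1.19 within those up to 10. The median log2 fold change was 1.22 without acetone 11 and 12, and ran from 0.01 to 0.76 with 1 library left out. Ribosomal protein scaling moved the median of all genes by the most there, to -0.45, and that of the members to 0.07. It turned Mki67 to -0.42, Mcm2 to -1.01, Mcm6 to -0.67 and Pcna to -0.0079. Mcm6 was -0.074 with library totals. With 1 library left out Mcm2 ran from -0.38 to 0.40, Mcm6 from -0.21 to 0.34 and H2afz from -0.0071 to 0.89.

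In pancreas the number of members past the threshold was 1, against 2 with a filter of 10 counts in 2 libraries or with no filter, 3 with DESeq2 or without caerulein 9 and 18, 0 with DESeq2's size factors or ribosomal protein scaling, 0 within label numbers up to 10, and 0 to 1 with 1 library left out. The median over those tested, which is Tubb5 alone (2.58), was 1.55 with 10 counts in 2 libraries, 1.20 with DESeq2, 3.07 with its size factors, 4.42 with library totals, 0.72 with no filter, 1.68 with ribosomal protein scaling, 1.66 without caerulein 9 and 18, 2.11 within label numbers up to 10 and 3.27 within those above 10, and ran from -0.11 to 2.52 with 1 library left out, since other members then enter. All genes had a median of 1.69 with library totals and -0.66 with ribosomal protein scaling. The difference in the list mean (0.51) was 1.44 with library totals, 0.17 with ribosomal protein scaling, 0.96 and 0.23 with priors of 0.25 and 4, and 1.08 for the log2 of summed members. Ribosomal protein scaling turned Top2a to -0.076 and Cdk1 to -0.38, library totals turned Ccnb1 to 0.59 and Rrm1 to 1.07, DESeq2's size factors turned Rrm1 to 0.12, and Mki67 was -0.48 without caerulein 9 and 18. With 1 library left out Mki67 ran from -0.20 to 0.99 and Cdk1 from -0.24 to 0.33.

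Between the controls 9 members passed, against 15 with DESeq2, 36 with library totals (where 73.4% of all genes were called higher), 5 with no filter or with a term for label numbers above 10, 0 within the numbers up to 10, 20 within those above 10, 1 without acetone 11 and 12, and 4 to 13 with 1 library left out. The tissue difference had 7 calls within the numbers above 10 and 0 under every other setting run. Settings without acetone 11 and 12, and without caerulein 9 and 18, were chosen after seeing the data. Beyond the differences in genes tested and libraries, the cause of these shifts was not tested.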
